A study of Rattus norvegicus with 5 samples.

Results

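Messenger RNA of 10 TNF and death-receptor signalling genes was examined in parietal cortex of rats with kaolin-induced hydrocephalus. The genes were Tnf, Tnfrsf1a, Tnfrsf1b, Fas, Tradd, Fadd, Traf2, Ripk1, Casp8 and Cflar. They were taken from the 41012 array probes by gene name or current rat symbol, which gave 12 probes, 2 of them for Fas (named Tnfrsf6 on the array) and 2 for Tradd. The genes were proposed with the kaolin over saline ratios of these arrays already known, so their ratios are a description and carry no test.

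The kaolin group was rat pups injected with kaolin, a clay that obstructs cerebrospinal fluid flow, on postnatal day 1, with parietal cortex taken on postnatal day 22 (post-kaolin day 21). The saline group was pups given saline at the same age and sampled at the same age, and all pups stayed with the dam. Strain, sex and whether a sample was 1 animal or a pool are not given in the sources used here. Kaolin RNA was labelled with Cy3 and saline RNA with Cy5, and 1 sample of each was hybridised together on each of 5 Agilent arrays (n = 5 per group). The dyes were never exchanged, and dye and treatment cannot be told apart. The injection itself is shared by both groups, and no uninjected cortex was analysed here.

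Tumour necrosis factor is a cytokine that microglia and macrophages release after injury. Its first receptor, encoded by Tnfrsf1a, carries a death domain and recruits TRADD, RIPK1 and TRAF2 into a complex that activates NF-kappaB. When that complex is not held in its survival form, FADD and caspase-8 join and can start apoptosis, a step that the caspase-8-like protein encoded by Cflar restrains. Fas, another death receptor, binds FADD directly, while the second TNF receptor, encoded by Tnfrsf1b, has no death domain and signals through TRAF2.

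The receptors and the adaptor Tradd had the highest ratios, and the ligand was not measured above background. Tnfrsf1a had a mean log2 ratio of kaolin over saline of 1.07 ± 0.83 (SD, n = 5), Fas 1.04 ± 0.92, Tradd 0.69 ± 0.30 and Tnfrsf1b 0.64 ± 0.66. Cflar stood at 0.38 ± 0.28 and Casp8 at 0.27 ± 0.21, and Ripk1, Traf2 and Fadd lay between 0.11 and 0.18. Of the 9 genes that could be measured, 9 had a positive mean, against 48.1% of the 24817 tested genes, and 3 (Tnfrsf1a, Tradd and Cflar) were positive on all 5 arrays, against 5.78% of tested genes. Counted by probe, 5 of 11 were positive on all 5 arrays, against 6.22% of tested probes, and 1 of these 5, the dimmer Fas probe, was in the tested set only through the kaolin channel. Their median mean ratio was 0.38, against -0.01 over all tested genes. In limma, 0 of the 11 tested probes of these genes passed an adjusted p of 0.05, where 0.0% of 29110 probes did so; at an unadjusted p under 0.05 there were 8 of the 11, all higher in kaolin, where 8.81% of probes were higher and 9.32% lower at that p. Nothing is read from these counts, since the genes were chosen on the same contrast.

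For the 3 receptors, replicates 3, 4 and 5 had the highest ratios. Over all tested probes the array ratios correlated at 0.83 between replicates 3 and 4. Replicate 1 correlated with these 2 at 0.53 and 0.48, replicate 5 at 0.57 and 0.45, and replicates 1 and 5 with each other at 0.12, while replicate 2 correlated at -0.37 with replicate 1, at -0.17 with replicate 3, at -0.07 with replicate 4 and at -0.06 with replicate 5 (Pearson, across probes, which are not independent). The labels state the dyes of every array, so the direction of replicate 2 was kept. A first slide held replicates 1 to 4 and a second held replicate 5. Per array, 27956 to 29384 probes exceeded background clearly for kaolin RNA and 27371 to 28927 for saline RNA. All 8 neuronal marker genes examined, among them Snap25 and Slc17a7, were above background, as the labelled tissue would give.

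**Figure D1:**
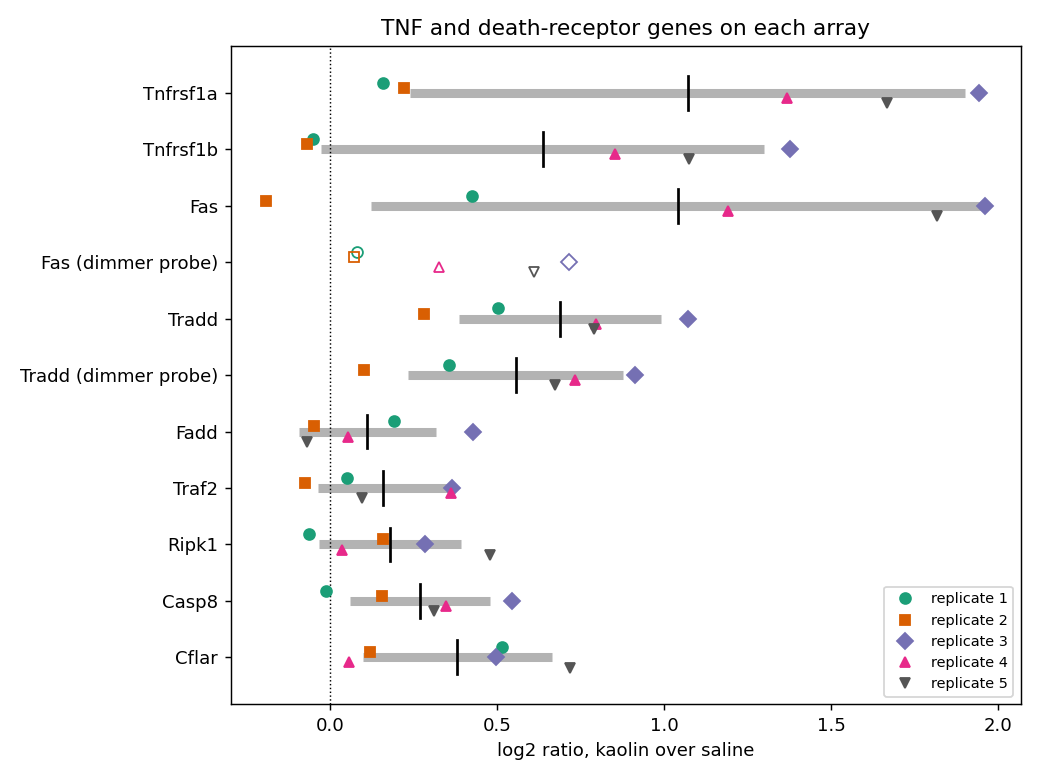
Log2 ratio of kaolin over saline on each of the 5 arrays (points) for the 11 tested probes, with the mean (black tick) and 1 SD (grey bar) over arrays; the dimmer Fas probe, not well above background in saline cortex, has open points and no mean. Tnfrsf1a, Tnfrsf1b and the brighter Fas probe reached 1.94, 1.38 and 1.96 on replicate 3, and lay between -0.19 and 0.43 on replicates 1 and 2.

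Tnf, the ligand, was not well above background in either channel of any array. Its single probe (chr20:3662706-3662765 on rn4) therefore has only an upper bound in both groups, and no ratio is given. Faslg, the ligand of Fas, and Tnfsf10, the TRAIL ligand, were likewise not well above background in the kaolin channel or the saline channel on any array. The transcript levels of these ligands in cortex were thus not detectable with these probes.

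Tnfrsf1a is the receptor through which soluble TNF acts in most cells. Its probe (chr4:162185192-162185251 on rn4) read 9.98, 10.06, 11.60, 11.31 and 11.58 on replicates 1 to 5 in kaolin cortex, against 9.82, 9.84, 9.66, 9.94 and 9.91 in saline cortex, as normalized log2 intensities. Kaolin replicates 3, 4 and 5 were high, kaolin replicates 1 and 2 were close to the saline samples, and the lowest kaolin sample was just above the highest saline sample. The ratios on replicates 1 to 5 were 0.16, 0.22, 1.94, 1.37 and 1.67, a 2.10-fold mean. That mean lay at percentile 99.6 of the means of all tested genes. The saline samples spread far less (SD 0.11) than the kaolin samples (SD 0.82).

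Tnfrsf1b encodes the second TNF receptor, which in brain is found mainly on microglia. Its probe (chr5:163666552-163666611 on rn4) read 7.17, 7.28, 8.51, 8.26 and 8.29 on replicates 1 to 5 in kaolin cortex, against 7.22, 7.35, 7.13, 7.41 and 7.22 in saline cortex. Kaolin replicates 3, 4 and 5 were above every saline sample, and kaolin replicates 1 and 2 lay among the saline samples. The ratios were -0.05, -0.07, 1.38, 0.85 and 1.07, a 1.55-fold mean.

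Fas, the death receptor that binds FADD, had 2 probes 13888 bases apart on chromosome 1. The brighter probe (chr1:238273471-238273530 on rn4) read 7.94, 7.40, 9.33, 8.61 and 9.09 on replicates 1 to 5 in kaolin cortex, against 7.51, 7.59, 7.37, 7.42 and 7.27 in saline cortex. Kaolin replicate 2 fell within the saline range, kaolin replicate 1 was slightly above it, and the other kaolin samples were well above it. The ratios were 0.43, -0.19, 1.96, 1.19 and 1.82, a 2.06-fold mean. The dimmer probe (chr1:238259523-238259582) was well above background on 3 of 5 arrays in kaolin cortex (replicates 3, 4 and 5) and on 0 of 5 in saline cortex, so it entered the tested set only through the kaolin channel. With the saline value set no lower than the lowest signal well above background on each array, the kaolin mean was 1.27-fold the saline mean. The kaolin values of replicates 1 and 2 were not well above background either, so 1.27 is not a lower bound. It is also open to dye bias. The measured means of this probe were 6.54 in kaolin and 6.18 in saline cortex on the log2 scale.

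**Figure D2:**
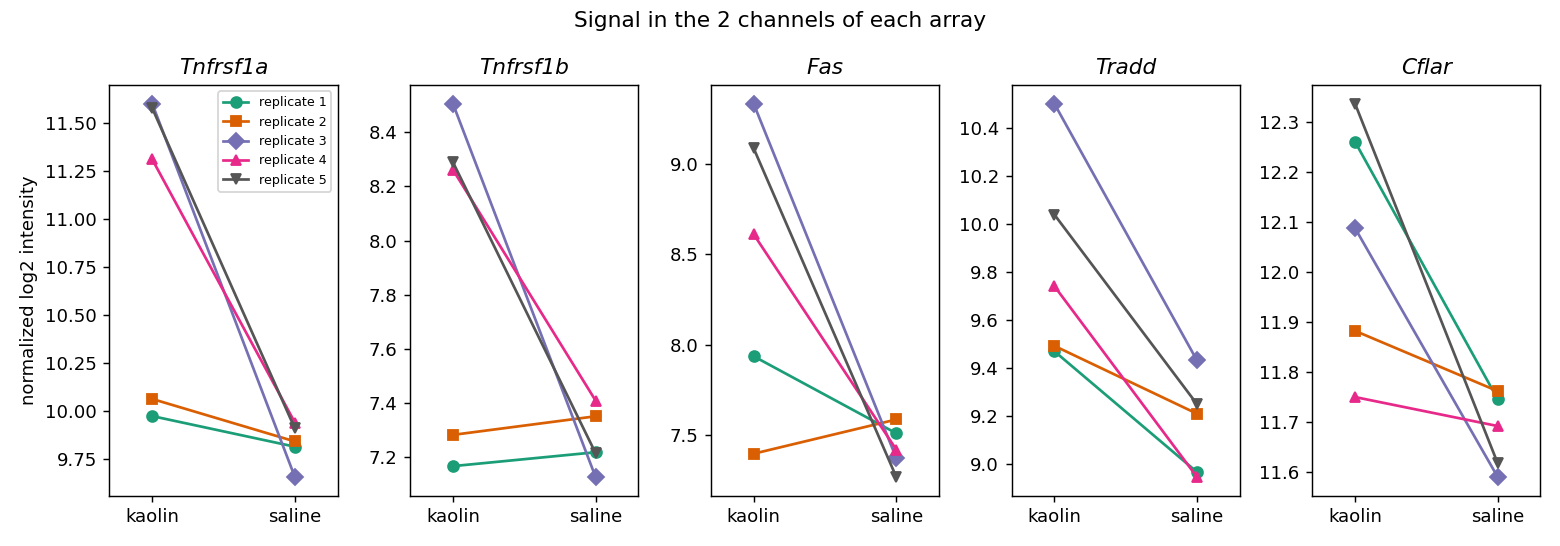
Normalized log2 intensity of 5 genes in the kaolin channel (left) and the saline channel (right), with a line joining the channels of each array; each panel has its own vertical scale. Kaolin replicates 3, 4 and 5 stand apart from the saline samples for Tnfrsf1a, Tnfrsf1b and Fas, while for Cflar kaolin replicate 4, at 11.75, lies among them.

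The 250 bases before the annotated starts of Tnf and of the 3 receptor genes are shown because the receptors had high ratios on the same 3 arrays while their ligand was not detected. They come from RefSeq on GRCr8, a later build than the rn4 of the array files, 5′ to 3′ on the gene's strand. Capitals mark matches, on either strand, to TGANTCA, an AP-1 pattern loosened to allow any central base. They also mark the interferon-stimulated response element (GAAA, then NN, then GAAA), the TATA box TATAAA and the GC box GGGCGG. The NF-kappaB consensus was also searched. Of the 3 GC boxes in Tnfrsf1b, the pair nearest the start overlapped.
Tnf, chr20:3626435-3626684, plus strand: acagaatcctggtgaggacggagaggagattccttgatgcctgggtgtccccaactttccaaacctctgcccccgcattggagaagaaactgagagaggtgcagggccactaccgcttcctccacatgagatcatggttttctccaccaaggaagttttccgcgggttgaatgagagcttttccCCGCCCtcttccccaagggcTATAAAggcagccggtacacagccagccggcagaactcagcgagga
Tnfrsf1a, chr4:159836869-159837118, plus strand: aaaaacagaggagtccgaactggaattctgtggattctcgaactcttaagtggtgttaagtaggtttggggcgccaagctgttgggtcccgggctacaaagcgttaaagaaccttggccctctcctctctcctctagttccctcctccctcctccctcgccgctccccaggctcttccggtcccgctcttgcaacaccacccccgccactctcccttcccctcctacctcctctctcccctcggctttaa
Tnfrsf1b, chr5:162387412-162387661, minus strand: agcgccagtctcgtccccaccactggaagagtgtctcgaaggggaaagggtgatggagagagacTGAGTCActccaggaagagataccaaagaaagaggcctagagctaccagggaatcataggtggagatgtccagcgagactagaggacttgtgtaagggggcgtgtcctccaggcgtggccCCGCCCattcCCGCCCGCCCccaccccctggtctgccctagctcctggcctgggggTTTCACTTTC
Fas, chr1:241211905-241212154, plus strand: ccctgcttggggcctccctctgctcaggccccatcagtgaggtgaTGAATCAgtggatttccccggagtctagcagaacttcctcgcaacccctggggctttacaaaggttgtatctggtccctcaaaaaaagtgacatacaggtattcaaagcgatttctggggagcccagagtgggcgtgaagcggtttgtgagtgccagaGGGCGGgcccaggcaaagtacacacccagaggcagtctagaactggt
Matches to the loosened AP-1 pattern lay 205 bases before the start in Fas (TGAATCA) and 186 bases before it in Tnfrsf1b (TGAGTCA). The central A of the Fas match is allowed only by the loosening. Of the 8 genes with a RefSeq promoter, 2 held a match, against 6.34% of 33469 promoters of the same length. The interferon-element match lay 10 bases before the start of Tnfrsf1b and was found in 1 of 8, against 3.41% of promoters. Tnf was the only 1 of the 8 with the TATA box, which 12.9% of promoters held, and 6 of 8 had a GC box, against 30.5%. The NF-kappaB consensus matched in 0 of the 8 windows, against 3.54% of promoters, and Tnfrsf1a matched none of the 5 motifs. The motifs were chosen after the ratios were known, and a match is a string of letters, not a site shown to be bound. Promoters of Tradd and Casp8 were not used here.

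Tradd encodes the adaptor that docks on the death domain of the first TNF receptor. Its brighter probe (chr19:35073235-35073294 on rn4) read 9.47, 9.49, 10.50, 9.74 and 10.04 on replicates 1 to 5 in kaolin cortex, against 8.97, 9.21, 9.43, 8.95 and 9.25 in saline cortex. Every kaolin sample was above every saline sample, by a narrow margin on replicates 1 and 2. The ratios were 0.50, 0.28, 1.07, 0.80 and 0.79, a 1.61-fold mean. A second probe 833 bases away (chr19:35074128-35074187) gave 0.36, 0.10, 0.91, 0.73 and 0.67, lower than the first on each array by 0.13 ± 0.05 on average (SD, n = 5), and its channels did not overlap either. Tradd and Tnfrsf1a were the 2 of 9 genes whose kaolin and saline levels did not overlap. Counted by probe it was 3 of 11, against 1.45% of tested probes with kaolin wholly above saline. Nothing is read from this count, since the genes were chosen on the same contrast. Tradd's SD over arrays (0.30) was smaller than that of any of the 3 receptors (0.66 to 0.92).

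The other proteins of the receptor complexes had small ratios. Fadd, the adaptor that brings caspase-8 to the receptors, had ratios of 0.19, -0.05, 0.43, 0.05 and -0.07 on replicates 1 to 5 (chr1:205009709-205009768 on rn4). Traf2, the ubiquitin-ligase adaptor shared by both TNF receptors, had 0.05, -0.07, 0.36, 0.36 and 0.10 (chr3:3693406-3693465). Ripk1, the kinase that serves survival signalling, apoptosis and necroptosis, had -0.06, 0.16, 0.29, 0.04 and 0.48 (chr17:37185923-37185982). For these 3 genes the means of 0.11 ± 0.20, 0.16 ± 0.20 and 0.18 ± 0.21 were no larger than the spread between arrays, and the kaolin and saline levels overlapped. With median centring in place of loess, Traf2 was at 0.02, where the median over all tested genes was -0.10. Without replicate 3 Fadd was at 0.033, and without replicate 5 Ripk1 was at 0.10.

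Casp8, the protease that starts the caspase cascade, and Cflar, its catalytically inactive relative and inhibitor, are neighbours on chromosome 9, with 93308 bases between their probes on rn4. The Casp8 probe spans 7087 bases of genome (chr9:57428119-57435205). It read 6.46, 6.59, 6.98, 6.82 and 6.80 on replicates 1 to 5 in kaolin cortex, against 6.47, 6.44, 6.43, 6.47 and 6.49 in saline cortex, and was well above background on 5 of 5 arrays in the kaolin channel and on 3 of 5 in the saline channel. Kaolin replicate 1 lay within the saline range and the other 4 kaolin samples above it. The mean of 0.27 ± 0.21 is that of a dim spot, and it was 0.53 with a normexp offset of 0 and 1.03 with the scanner software's processed signals, which change background correction and normalization together. Ripk1, also dim, was at 0.44 with the processed signals.

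Cflar was among the brighter spots (chr9:57334751-57334810 on rn4). It read 12.26, 11.88, 12.09, 11.75 and 12.34 on replicates 1 to 5 in kaolin cortex, against 11.75, 11.76, 11.59, 11.69 and 11.62 in saline cortex. Kaolin replicate 4 was within the saline range and the other 4 kaolin samples were above it. The ratios of 0.51, 0.12, 0.50, 0.06 and 0.72 did not follow the order of the receptors: replicate 1 was high for Cflar and replicate 4 low. With median centring the mean was 0.17, where the median of all genes also moved to -0.10.

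Microglial and reactive astrocyte markers had high ratios on the same arrays as the receptors. The 13 measured microglia and macrophage markers had array medians of -0.01, 0.05, 2.10, 1.66 and 2.35 on replicates 1 to 5, with 13 of 13 positive means. Their mean log2 level ranged from 9.64 to 11.65 over kaolin samples and from 9.55 to 9.71 over saline samples, and 0 of the 13 were at background throughout. The 9 tested reactive astrocyte markers had medians of 0.04, -0.06, 2.33, 1.84 and 2.35, with 8 of 9 positive means, and their list of 10 ranged from 9.26 to 11.52 over kaolin samples and from 9.21 to 9.67 over saline samples. Ependymal markers, with medians of 0.42, -0.23, 0.56, 0.61 and 0.62, and meningeal markers, with -0.52, -0.20, 0.83, -0.02 and 0.55, were also highest on replicates 3, 4 and 5. General astrocyte markers, with medians of -0.21, 0.24, 0.14, -0.01 and 0.22, and oligodendrocyte markers, with 0.25, 0.11, 0.01, 0.24 and -0.63, did not have that order. Neither did endothelial and pericyte markers, with -0.07, 0.03, 0.21, 0.02 and -0.07. Choroid plexus markers had 0 of 5 positive means and medians of -0.66, -0.96, -0.92, -0.47 and -0.06, and their mean level ranged from 7.23 to 7.95 over kaolin samples and from 7.41 to 9.49 over saline samples. The part of these cells in the receptor ratios was not tested, and in whole tissue more cells of a type and more RNA per cell cannot be told apart. Lymphocyte and granulocyte markers ranged from 6.43 to 6.67 over kaolin samples and from 6.38 to 6.50 over saline samples, with the T cell marker Cd3e and the granulocyte marker Mpo never above background. The T cell marker Cd8a was well above background on 3 of 5 arrays in kaolin cortex and on 0 of 5 in saline cortex. Its highest ratios were on replicates 3, 4 and 5. Its kaolin mean was 1.36-fold the saline mean, computed as for the dimmer Fas probe and likewise not a lower bound. Neuronal markers had medians of -0.17, 0.19, -0.34, -0.24 and -0.29. The 10 genes themselves had medians of 0.16, 0.12, 0.54, 0.36 and 0.72 over the 9 measured.

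**Figure D3:**
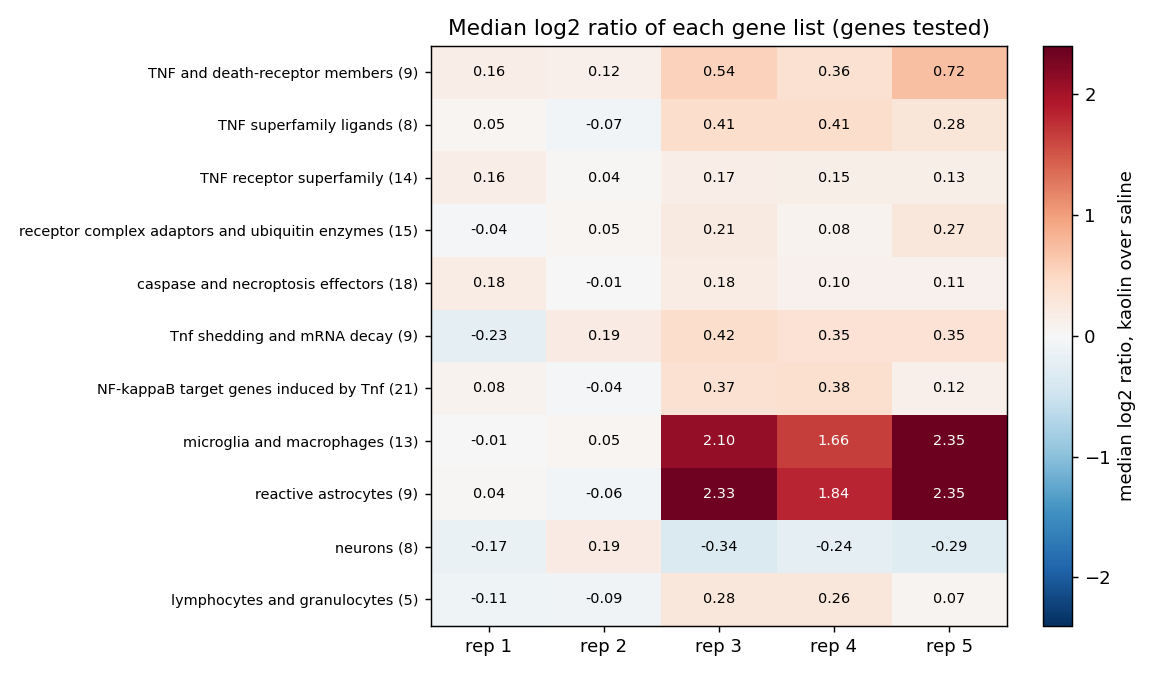
Median log2 ratio of kaolin over saline on each array for the 9 measured genes, for 6 lists of other pathway genes and for 4 lists of cell type markers (number of genes tested in brackets). The microglial and reactive astrocyte medians are 1.66 or more on replicates 3, 4 and 5 and between -0.06 and 0.05 on replicates 1 and 2, and no pathway list reaches 0.5 on any array.

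The genes closest to Tnfrsf1a across the 5 arrays, by the root mean square difference of the log2 ratios among 12044 other genes with a current symbol, were RT1-CE12 (0.09), Arhgdib (0.10) and Fgfrl1 (0.10). RT1-CE12, a class I histocompatibility gene, had ratios of 0.19, 0.15, 1.81, 1.24 and 1.65. Arhgdib, expressed mainly in blood-lineage cells, had 0.28, 0.27, 2.06, 1.48 and 1.71. Fgfrl1, a receptor of the fibroblast growth factor family, had 0.11, 0.25, 1.96, 1.19 and 1.55.

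Beyond the 10 genes, 119 others of the pathway were listed from textbook knowledge in 6 groups, and 85 of them were tested. These lists, too, were drawn up with earlier results of these data known. In limma 0 passed an adjusted p of 0.05 in either direction; at an unadjusted p under 0.05, 28 were higher and 3 lower, where 8.46% of tested genes were higher and 9.83% lower. Positive means were found for 64 of the 85, against 48.1% of all tested genes. With median centring the count of pathway genes with a positive mean was 49, where the median over all tested genes was -0.10. Nothing is read from these counts or from those of the single lists below, since the lists were not chosen independently of these data.

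Among the ligands of the TNF superfamily, 7 of 8 tested genes had positive means and the median was 0.26, against 0.16 with median centring and 0.02 with no filter on dim probes, which adds the ligands at background. Ltb, which encodes lymphotoxin beta, stood at 0.41 ± 0.18 and was positive on 5 of 5 arrays. Tnfsf13 and Tnfsf13b, which encode the B cell factors APRIL and BAFF, stood at 0.35 ± 0.27 and 0.31 ± 0.26. Each had an adjusted p of 0.24 in limma.

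Among the other receptors of the superfamily, 9 of 14 had positive means and the median was 0.06, against 0.16 with the authors' series matrix or the software's log ratio and 0.18 with the processed signals. Tnfrsf12a, the receptor for TWEAK, had ratios of 0.77, -0.01, 1.17, 0.68 and 0.86 on replicates 1 to 5, and its second probe had a mean of 0.59 beside 0.69. Cd40, the costimulatory receptor of antigen-presenting cells, had 0.26, -0.02, 1.61, 0.61 and 0.78, and its second probe had a mean of 0.27 beside 0.65. Tnfrsf17 stood at 0.27 ± 0.18. The death receptor genes Tnfrsf21 (death receptor 6) and Ngfr (the p75 neurotrophin receptor) stood at 0.11 ± 0.13 and -0.00146 ± 0.22. In limma the adjusted p was 0.24 for Tnfrsf12a, Cd40 and Tnfrsf17, 0.43 for Tnfrsf21 and 0.99 for Ngfr.

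Of the adaptors and ubiquitin enzymes that work on the receptor complexes, 11 of 15 had positive means and the median was 0.12. Median centring took it to -0.04, where the median over all tested genes was -0.10. Birc3 and Birc2 encode the ubiquitin ligases cIAP2 and cIAP1 that modify RIPK1. Birc3 had ratios of 0.07, 0.08, 0.81, 0.57 and 0.67, and Birc2 0.48, 0.05, 0.61, 0.40 and 0.28. Rbck1, a subunit of the linear ubiquitin ligase, stood at 0.23 ± 0.10 and was positive on 5 of 5 arrays (adjusted p = 0.24 in limma, as for Birc2 and Birc3). The 4 genes with negative means were the kinase genes Map3k7 (-0.23 ± 0.22), Ikbkb (-0.22 ± 0.16) and Chuk (-0.21 ± 0.36), and Traf3 (-0.15 ± 0.31). No tested probe carried the name of Tnfaip3, the deubiquitinase A20.

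Downstream, 14 of 18 caspase and necroptosis genes had positive means and the median was 0.12. Median centring took it to -0.05, where the median over all tested genes was -0.10. Ripk3, the kinase of necroptosis, had ratios of 0.17, -0.13, 2.55, 2.19 and 1.55, and its mean of 1.27 ± 1.20 was above that of each of the 9 measured genes of the main set. Casp6, an executioner caspase, stood at 0.49 ± 0.25. Bid, which links caspase-8 to mitochondria, stood at 0.44 ± 0.36. In limma the adjusted p was 0.24 for Ripk3, Casp6 and Bid. No tested probe carried the name of Mlkl, the necroptosis effector.

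Among the genes of TNF shedding and mRNA decay, 7 of 9 had positive means and the median was 0.22. Adam17, the protease that releases TNF from the cell surface, had ratios of 0.03, 0.19, 0.70, 0.56 and 0.22. Nrros, listed here though it encodes neither a protease that releases TNF nor an mRNA decay factor, had the list's highest mean, 0.47 ± 0.38. Rhbdf2, which carries ADAM17 to the surface, was well above background on 3 of 5 arrays in kaolin cortex and on none in saline cortex. Its kaolin mean was 1.08-fold the saline mean, computed as for the dimmer Fas probe and likewise not a lower bound. In limma the adjusted p was 0.24 for Adam17 and Nrros.

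Of the listed NF-kappaB genes, which were TNF-induced targets along with subunits and inhibitors of NF-kappaB, 16 of 21 had positive means. Their median was 0.15. Ccl2, a monocyte attractant, had ratios of 0.47, -0.19, 3.22, 3.33 and 2.33, and was well above background on 4 of 5 arrays in kaolin cortex and on 3 of 5 in saline cortex. Nfkbie, an inhibitor of NF-kappaB, stood at 0.43 ± 0.27 and Rela, the p65 subunit of NF-kappaB, at 0.33 ± 0.19, with a second Rela probe at 0.15 ± 0.23. Nfkbia, an inhibitor that NF-kappaB itself induces, stood at -0.05 ± 0.34, and a second probe at -0.46 ± 0.33. In limma the adjusted p was 0.24 for Ccl2, Nfkbie and Rela and 0.84 for Nfkbia.

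**Figure D4:**
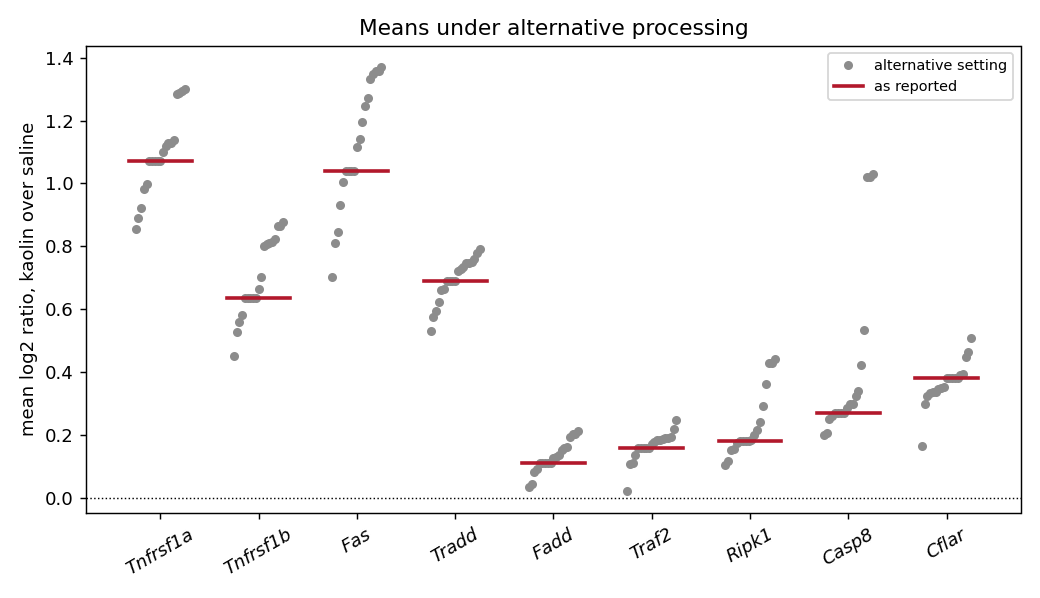
Mean log2 ratio of kaolin over saline of the 9 measured genes as reported (red line) and under each alternative setting (grey points). Every mean stays above 0, and the points furthest from the line are those of Casp8, up to 1.03.

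For the receptors and Tradd, replicate 5, alone on its slide, had higher ratios than the mean of the other slide, while Fadd and Traf2 had lower ones. On the slide of replicates 1 to 4 the means were 0.92 for Tnfrsf1a, 0.85 for Fas, 0.53 for Tnfrsf1b and 0.66 for Tradd, against 1.67, 1.82, 1.07 and 0.79 on the other slide's single array. With slide as a block the means were 1.29, 1.33, 0.80 and 0.73. Without replicate 2, 3 probes of the 10 genes passed an adjusted p of 0.05 in limma (the brighter Fas probe and both Tradd probes), where 2.46% of probes were higher and 2.82% lower. With array weights, which gave replicate 2 the lowest weight (0.46), 7 probes passed, among them the dimmer Fas probe, where 5.32% of probes were higher and 6.63% lower. These counts too come from the contrast on which the genes were chosen, and nothing is read from them.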

How the data were processed

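Total RNA from 5 kaolin and 5 saline cortex samples was measured on 5 two-colour Agilent arrays. Agilent Feature Extraction 10.1.1.1 wrote the spot data, and probe positions are on rn4, per the file headers. As deposited, mean spot signal and local background are raw intensity values, processed signals are intensity values after background subtraction and dye normalization, the software's ratio is log10 of Cy5 over Cy3, and the spot flags are other values of 0 or 1. The authors' deposited series matrix gives a log2 ratio, Cy3 over Cy5. Its direction was settled from the values (correlations of -1.00 to -0.98 with the log10 ratio). How it was normalized is not stated here, but its means for the 9 measured genes were, as rounded here, those of the software's log ratio. Its column medians were 0.02, -0.05, -0.02, 0.09 and -0.10.

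Between 86 and 147 outlier spots per array were left out, and no spot was saturated. Signals were corrected with normexp (offset 50), normalized by loess within arrays with control spots given no weight, and averaged per probe. Probes well above background in either channel on 3 or more of the 5 arrays were tested (29110 of 41012). A gene is its brightest tested probe. Channel levels are the same values after Aquantile normalization. Ratios were fitted in limma 3.58.1 (R 4.3.3), where the mean ratio was set against 0 in a two-sided test and p-values were adjusted by Benjamini-Hochberg over all 29110 probes; the array pairs the samples. The p-values measure the spread between these arrays, whose number limits the precision. The fit was run on simulated ratios drawn independently between arrays, with the spread of each probe capped at the median SD over probes. That setting is easier than the real arrays, so nothing is read from it about probes with a larger spread. Symbols came from RefSeq for 19401 probes.

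Members, lists and tests were chosen with earlier results of these data known. Named pathway genes were the 3 with the smallest p in each list and 13 fixed genes; a few genes that this rule or a marker list holds are not reported here. Some alternatives in the closing section change background correction and normalization together.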

Additional observations from a re-analysis of the deposited data

Results flagged for a closer look

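Of 51 sets of 5 array values, those of the tested probes of the 10 genes, the named pathway genes and the list medians, 3 had an array far from the other 4, where chance gives about 1 in 20. The receptor superfamily median was 0.036 on replicate 2, against 0.13 to 0.17 on the other arrays. The ependymal marker median was -0.23 on replicate 2 and between 0.42 and 0.62 on the others. The oligodendrocyte marker median was -0.63 on replicate 5, on the slide of its own, and between 0.01 and 0.25 on the others. None of the 11 tested probes of the 10 genes had such an array.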

How the results depend on the processing

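Under 19 alternatives the means of the 9 measured genes kept a positive sign. Their median, 0.38 as reported, was 0.76 with the processed signals, 0.75 with the authors' series matrix or the software's log ratio, and 0.64 with both channels required above background on all 5 arrays, which leaves 7 genes; without 1 replicate it ran from 0.30 to 0.46. The count of probes past an adjusted p of 0.05 in limma, 0 as reported (5278 at an unadjusted p under 0.05), was 22 with median centring, 3478 with array weights, 3 with no replicate block (the channels as separate samples) and 489 with the sign of replicate 2 turned, an alternative chosen after seeing the data; without 1 replicate it ran from 0 to 1536, the highest without replicate 2. Pathway genes past it, 0 as reported, were 23 with array weights and from 0 to 6 without 1 replicate, the 6 being Bid, Birc2, Casp6, Ccl2, Ltb and Tnfrsf12a without replicate 2. The cause of these shifts was not tested.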

Other observations

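Microglial markers did not share a single level of response. Fcgr3a, an Fc receptor, had a mean log2 ratio of kaolin over saline of 2.01 ± 1.84 (SD, n = 5), and Cd68, a lysosomal protein of phagocytes, 1.27 ± 1.26. P2ry12 and Tmem119, markers of resting microglia, stood at 0.05 ± 0.38 and 0.15 ± 0.30. On replicate 5 Tmem119 was at -0.31, while Cd68 was at 2.48.

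The probes of Nfkbia differed. The brighter had ratios of 0.09, -0.55, -0.02, 0.38 and -0.16 on replicates 1 to 5, and the other -0.18, -0.27, -0.87, -0.77 and -0.22, negative on 5 of 5 arrays.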
